A study of Mus musculus with 10 samples.

Results

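The 34 genes described here make, sense, move and store cholesterol. They comprise 18 enzymes of cholesterol synthesis, 7 genes of sterol sensing and regulation, and 9 genes of cholesterol transport and storage. RNA was measured in mouse embryonic testis on Affymetrix Mouse430_2 arrays at 5 stages named by embryonic day (E), from E11.5 through E12.5 and E14.5 to E16.5 and E18.5, with 2 arrays from independent testis preparations at each stage. No genotype, strain or treatment is given in the sources used here, and no group was treated or mutant as far as the labels say. The tissue was the whole embryonic testis, a mixture of cell types whose makeup changes over these days. A gene was represented by 1 probe set, a group of array probes for its transcripts: of the probe sets annotated to that gene alone, the one with the highest mean log2(signal + 16) over the 10 arrays. By this rule 31 of the 34 genes had a probe set, out of 18193 genes in all, and Acat2, Nr1h2 and Soat1 are not analysed here. Of these 31 genes, 30 passed the filter on low values that left 10916 genes tested, and Nr1h3, a nuclear receptor that responds to oxidised cholesterol, did not, with signals of 25.0 to 45.9.

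Cholesterol is built from acetyl-CoA through mevalonate, isoprenoid units, squalene and lanosterol, and the last steps reshape lanosterol into cholesterol. When the membranes of the endoplasmic reticulum hold little sterol, Scap escorts the SREBP transcription factors to the Golgi for activation, and these raise the synthesis enzymes together, while Insig proteins hold Scap back when sterol is plentiful. In the fetal testis, cholesterol is also the precursor of the androgens that fetal Leydig cells make.

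Most of these genes differed between stages, and most synthesis enzymes had their lowest level at E12.5 and their highest at E16.5. Of the 30 genes tested, 24 passed the moderated F test over the 5 stages (limma, Benjamini-Hochberg adjusted p below 0.05), against 34.7% of all tested genes. The 24 were 15 of the 17 synthesis enzymes, 4 of 5 regulators and 5 of 8 transport and storage genes. Pmvk, which adds the second phosphate to mevalonate, and Ggps1, which makes geranylgeranyl diphosphate on a branch away from cholesterol, were the synthesis genes that did not pass, with adjusted p of 0.221 and 0.79. The F test call of Stard4 was lost in 8 of the 10 fits that each left out 1 array, all except those without an E11.5 array. Calls of Mvk, Srebf1, Srebf2, Lipe and Lipa were lost in 1 or 2 such fits, which left out replicate 1 at E12.5, E14.5 or E16.5, or replicate 2 at E16.5 or E18.5. The stage mean was highest at E16.5 for 15 of the 17 synthesis enzymes and for 4 of the 5 regulators, while 23.5% of all tested genes were highest at E16.5. It was lowest at E12.5 for 15 of the 17 enzymes. The share of all tested genes lowest at E12.5 was not counted, and 0 of the 30 genes passed between E12.5 and E11.5. In RNA of a whole organ such as this, fewer cells of a type and less RNA per cell cannot be told apart.

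**Figure D1:**
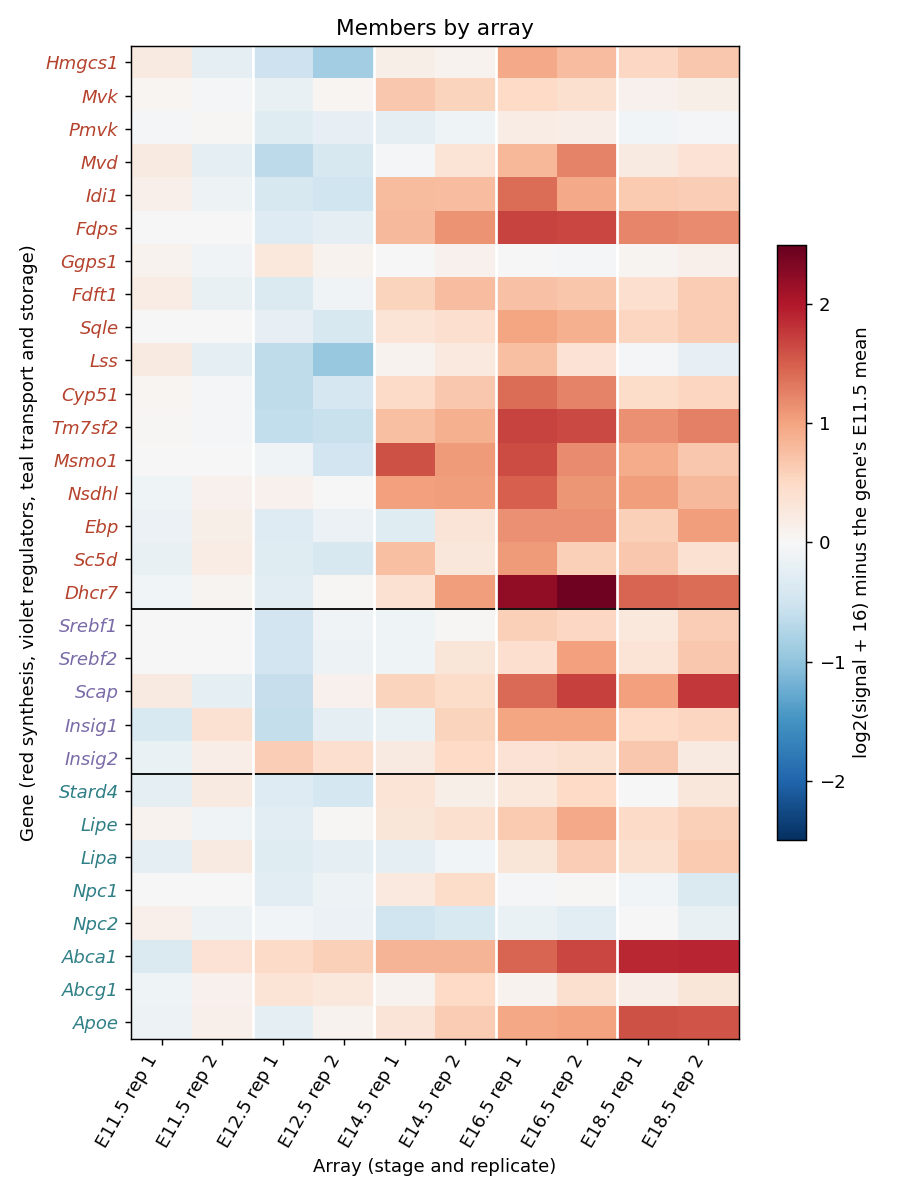
Each row is 1 of the 30 tested genes and each column 1 array, grouped by stage, with the colour giving log2(signal + 16) minus that gene's E11.5 mean. The synthesis enzymes in the top block are mostly below their E11.5 level at E12.5 and highest at E16.5, whereas Abca1 and Apoe in the bottom block are highest at E18.5.

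Among the early enzymes, Hmgcs1 makes the HMG-CoA that is reduced to mevalonate. Its signal was 3061.7 and 2239.3 on the E11.5 arrays, 1817.0 and 1422.5 on the E12.5 arrays, 2882.2 and 2789.6 on the E14.5 arrays, 5051.1 and 4493.3 on the E16.5 arrays, and 3767.8 and 4177.6 on the E18.5 arrays. The E16.5 arrays were the highest and the E12.5 arrays the lowest, with no overlap between these stages. Fdps, which joins isoprenoid units into farnesyl diphosphate, had 666.3 and 663.1 on the E11.5 arrays, 525.1 and 557.2 on the E12.5 arrays, 1175.4 and 1474.6 on the E14.5 arrays, 2190.8 and 2158.3 on the E16.5 arrays, and 1572.1 and 1519.6 on the E18.5 arrays. Every Fdps array from E14.5 onward lay above every earlier one.

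Tm7sf2, Cyp51 and Dhcr7, which act after lanosterol, also had their lowest mean at E12.5 and their highest at E16.5. Tm7sf2, a sterol C14 reductase, had signals of 106.0 and 100.2 on the E11.5 arrays, 62.2 and 64.7 on the E12.5 arrays, 185.4 and 203.8 on the E14.5 arrays, 367.9 and 357.7 on the E16.5 arrays, and 248.6 and 270.7 on the E18.5 arrays. Its 5 stages did not overlap. Cyp51, the lanosterol demethylase that acts just before it, had 324.5 and 305.7 on the E11.5 arrays, 197.9 and 230.1 on the E12.5 arrays, 447.7 and 508.5 on the E14.5 arrays, 857.1 and 760.6 on the E16.5 arrays, and 437.9 and 465.3 on the E18.5 arrays. Here E14.5 and E18.5 overlapped and the E16.5 arrays stood above all others. Dhcr7, which catalyses a last step to cholesterol, had 148.0 and 166.4 on the E11.5 arrays, 128.0 and 161.4 on the E12.5 arrays, 209.1 and 340.7 on the E14.5 arrays, 785.6 and 914.7 on the E16.5 arrays, and 458.4 and 438.7 on the E18.5 arrays. Its E11.5 and E12.5 arrays overlapped, and its E14.5 arrays lay far apart.

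**Figure D2:**
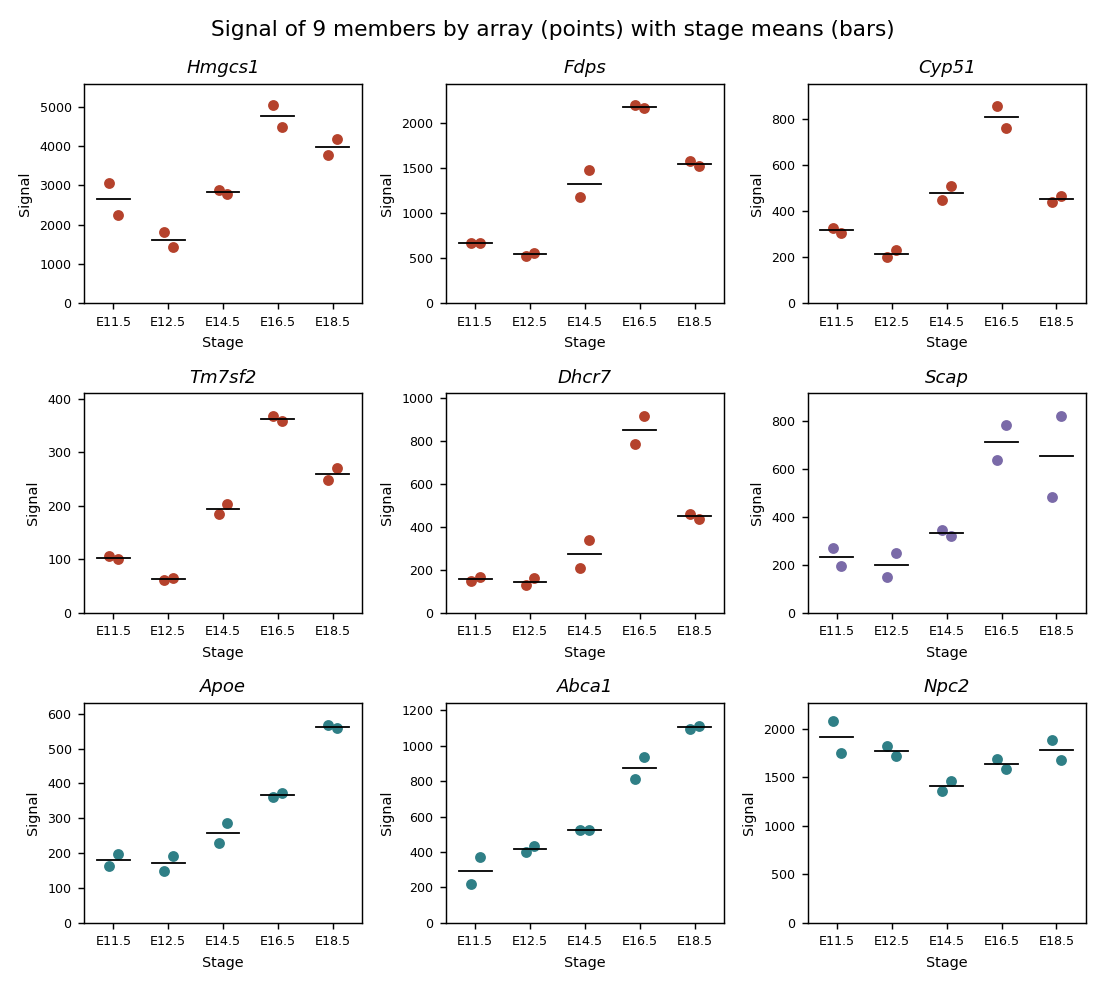
Signal on each array (points, linear scale from 0) by stage for 9 genes, with a bar at the mean of the 2 arrays, in red for synthesis enzymes, violet for Scap and teal for transport and storage genes. Hmgcs1, Fdps, Cyp51, Tm7sf2 and Dhcr7 are highest at E16.5, Apoe and Abca1 are highest at E18.5, and Npc2 is lowest at E14.5.

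E16.5 and E12.5 arrays were scanned on the same day, so scan day does not differ between them, although the fluidics modules do. Between E16.5 and E12.5, 24 of the 30 genes rose, against 16.8% of all tested genes higher and 10.2% lower. None of the 30 was lower by limma's test, and 0 were lower at an unadjusted p below 0.05, against 15.6% of all tested genes. The 24 comprised 15 synthesis enzymes, and the median log2 change of all 17 was 1.37, against 0.06 for all tested genes. Dhcr7 averaged 850.2 ± 91.3 at E16.5 and 144.7 ± 23.6 at E12.5 (SD, n = 2 each), a log2 change of 2.43 ± 0.21 (SE, adjusted p = 2.91e-06). Tm7sf2 averaged 362.8 ± 7.21 at E16.5 and 63.5 ± 1.77 at E12.5, a log2 change of 2.25 ± 0.16 (adjusted p = 4.86e-07). Fdps rose by 1.98 ± 0.16, Cyp51 by 1.84 ± 0.16, Msmo1, the methyl sterol oxidase, by 1.68 ± 0.22, and Idi1, which isomerises the isoprenoid unit, by 1.62 ± 0.18. Mvd, the decarboxylase that makes that unit, and Hmgcs1 rose by 1.56 each. Ebp rose by 1.37, Lss by 1.34, Nsdhl by 1.25, Sqle, the squalene epoxidase, by 1.23, Sc5d, a sterol desaturase, by 1.17, Fdft1 by 0.93 and Mvk, the mevalonate kinase, by 0.52. Pmvk changed by 0.42 (adjusted p = 0.0618) and Ggps1 by -0.20 (adjusted p = 0.383), neither past the test. Ggps1 kept to 191.7 to 247.6 over all 10 arrays. Calls of 18 of the 24 genes held with each array left out in turn. Those of Mvk, Srebf1, Srebf2, Stard4, Lipe and Lipa did not, and the count was 19 without E12.5 replicate 1, 22 without E12.5 replicate 2, 23 without E16.5 replicate 1 and 19 without E16.5 replicate 2.

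A fold change here is of signal + 16, so it understates the change of dim genes. The second Fdps probe set was very dim (mean signal 1.89) and changed by 0.04 between E16.5 and E12.5, while the pair of dim probe sets of Fdft1 changed by -0.34 and -0.90 and its other bright one by 1.03. The 4 other probe sets of Hmgcs1 changed by 1.41 to 1.81. Those of Cyp51 changed by 1.31 and, for a dim one (mean signal 17.4), by 1.73. Other genes had probe sets that differed more. The second of Msmo1 (mean signal 31.6) changed by 0.31 where the brightest changed by 1.68. Those of Lss changed by 0.55 (mean signal 42.6) and 2.40 where its brightest changed by 1.34. Those of Sc5d changed by 0.36 and 1.98 where its brightest changed by 1.17.

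Because most of these enzymes rose between E16.5 and E12.5, their promoters were read from the RefSeq table for GRCm38.p6, which gives 250 bases before to 50 bases after each annotated start. It held 25 of the 34 genes, 8 of them with several promoters. The 6 promoters below are Hmgcs1 with the only sterol response element core found among these genes, 3 further enzymes that rose strongly (for Dhcr7 the 1 of 3 promoters with most CCAAT boxes), the enzyme Ggps1 that did not pass the test, and the transporter Abca1. All except Hmgcs1 were chosen after motifs and values had been seen. Capitals mark the CCAAT box on either strand (CCAAT or ATTGG) and the sterol response element core TCACNCCAC.
Hmgcs1 (chr13:119690101-119690400, plus strand): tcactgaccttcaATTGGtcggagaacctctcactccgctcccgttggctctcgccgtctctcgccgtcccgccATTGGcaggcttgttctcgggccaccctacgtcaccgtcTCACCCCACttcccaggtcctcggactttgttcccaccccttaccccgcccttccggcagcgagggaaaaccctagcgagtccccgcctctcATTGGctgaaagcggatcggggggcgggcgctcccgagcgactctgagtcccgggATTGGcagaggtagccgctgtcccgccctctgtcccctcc
Tm7sf2 (chr19:6067801-6068100, minus strand): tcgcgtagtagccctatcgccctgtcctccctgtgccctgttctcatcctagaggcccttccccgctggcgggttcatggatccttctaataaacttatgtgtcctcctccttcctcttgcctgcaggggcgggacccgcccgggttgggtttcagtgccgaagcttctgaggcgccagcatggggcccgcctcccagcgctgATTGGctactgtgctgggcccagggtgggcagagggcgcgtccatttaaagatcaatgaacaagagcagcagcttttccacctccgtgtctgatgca
Msmo1 (chr8:64733529-64733828, minus strand): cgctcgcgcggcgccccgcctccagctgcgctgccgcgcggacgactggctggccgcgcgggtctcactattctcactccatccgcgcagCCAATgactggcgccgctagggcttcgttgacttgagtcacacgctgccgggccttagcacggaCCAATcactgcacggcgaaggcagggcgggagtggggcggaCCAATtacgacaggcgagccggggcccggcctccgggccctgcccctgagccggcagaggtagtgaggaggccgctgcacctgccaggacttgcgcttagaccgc
Dhcr7 (chr7:143829964-143830263, plus strand): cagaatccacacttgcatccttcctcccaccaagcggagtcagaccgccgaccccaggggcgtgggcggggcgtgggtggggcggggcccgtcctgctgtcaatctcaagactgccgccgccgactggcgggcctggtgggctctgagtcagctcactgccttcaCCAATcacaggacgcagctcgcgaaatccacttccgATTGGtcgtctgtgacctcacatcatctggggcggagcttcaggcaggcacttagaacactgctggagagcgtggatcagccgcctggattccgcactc
Ggps1 (chr13:14063439-14063738, minus strand): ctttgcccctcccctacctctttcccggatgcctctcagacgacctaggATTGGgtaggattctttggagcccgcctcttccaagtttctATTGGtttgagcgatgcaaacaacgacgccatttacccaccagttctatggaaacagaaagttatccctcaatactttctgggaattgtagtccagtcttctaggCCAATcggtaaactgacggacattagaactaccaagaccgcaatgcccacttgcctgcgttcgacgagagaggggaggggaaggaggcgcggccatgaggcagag
Abca1 (chr4:53159846-53160145, minus strand): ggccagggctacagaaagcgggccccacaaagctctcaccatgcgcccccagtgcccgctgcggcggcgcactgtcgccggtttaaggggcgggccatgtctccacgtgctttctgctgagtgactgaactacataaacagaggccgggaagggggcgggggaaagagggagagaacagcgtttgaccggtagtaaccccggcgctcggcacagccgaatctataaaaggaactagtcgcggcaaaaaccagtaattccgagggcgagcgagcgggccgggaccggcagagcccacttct

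A CCAAT box was present in at least 1 promoter of each of the 14 synthesis enzymes found in the table. The same held for 4 of 6 regulators and 2 of 5 transport and storage genes. Of the 27025 genes listed in that table, 41.1% had at least 1 box in a promoter. A gene with several promoters had more chances to count, and for Dhcr7 only the printed 1 of its 3 promoters held a box. Within the 100 bases before the start, 13 of the 14 enzymes held it, against 21.6% of genes. Ggps1 has 3 boxes in the promoter printed above, and Abca1 has none. The core of the sterol response element, the site to which SREBP factors bind, matched only Hmgcs1, starting at base -137 from the annotated start, against 1.44% of genes. Its shorter inner part CACNCCA, which overlaps that core, was in 2 of 14 enzymes, 3 of 6 regulators and 1 of 5 transport and storage genes, against 20.6% of genes. The GC box GGGCGG was in 12 of 14 enzymes, 5 of 6 regulators and 4 of 5 transport and storage genes, against 38.2%, and the E-box CACGTG in 2 genes of each group, against 8.09%. The NR5A site CAAGGTCA matched 1 gene, Dhcr7, in a promoter other than the 1 printed (1.76% of genes), and the repeat of AGGTCA with 4 bases between, to which Nr1h3 and Nr1h2 bind, matched none of these genes (0.0148%). All motifs were searched on both strands. The matches describe letters in this window only.

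The rise of the enzymes was spread over 2 steps. Between E14.5 and E12.5, 13 of the 30 genes rose and 0 were lower, against 3.53% of all tested genes higher and 1.73% lower. All 13 were synthesis enzymes. The count lower at an unadjusted p below 0.05 was also 0, against 10.4% of all tested genes. The median log2 change of the 17 enzymes was 0.87. Msmo1 had 1291.7 and 888.7 at E14.5, against 391.5 and 298.1 at E12.5, a log2 change of 1.60 ± 0.22 (adjusted p = 0.000679). Its arrays did not overlap, and the E14.5 pair was spread widely. Tm7sf2 rose by 1.41 ± 0.16, Fdps by 1.26 ± 0.16, Idi1 by 1.23 ± 0.18 and Cyp51 by 1.10 ± 0.16. Those 5 calls held with each array left out in turn. The count was 8 without E12.5 replicate 1, 7 without E12.5 replicate 2, 7 without E14.5 replicate 1 and 8 without E14.5 replicate 2. Mvd changed by 0.68 (adjusted p = 0.0808), Ebp by 0.25 (0.526), Pmvk by 0.08 (0.784) and Ggps1 by -0.11 (0.703).

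Between E16.5 and E14.5, 10 of the 30 genes rose and 0 were lower, against 7.70% of all tested genes higher and 3.12% lower. The count lower at an unadjusted p below 0.05 was also 0, against 9.95% of all tested genes. The 10 that rose were 8 synthesis enzymes with Scap and Abca1, and the median of the 17 enzymes was 0.39. Dhcr7 rose by 1.61 ± 0.21 (adjusted p = 0.000617). Ebp, a sterol isomerase, had 399.6 and 396.6 at E16.5, against 137.3 and 218.2 at E14.5, and rose by 1.13 ± 0.22 (adjusted p = 0.0063). Mvd, Tm7sf2, Hmgcs1, Cyp51, Fdps and Sqle rose by 0.56 to 0.88. Msmo1 had 1326.9 and 967.5 at E16.5, which overlapped its E14.5 signals, and changed by 0.08 (adjusted p = 0.848), and Fdft1, which makes squalene, changed by 0.05 (0.904). The count depended on single arrays: 2 genes passed without E14.5 replicate 1, 4 without E16.5 replicate 1, and 1, Dhcr7, without E16.5 replicate 2. Each of these steps joins stages scanned on different days, so stage and scan day cannot be told apart in them. They also share the E14.5 arrays.

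**Figure D3:**
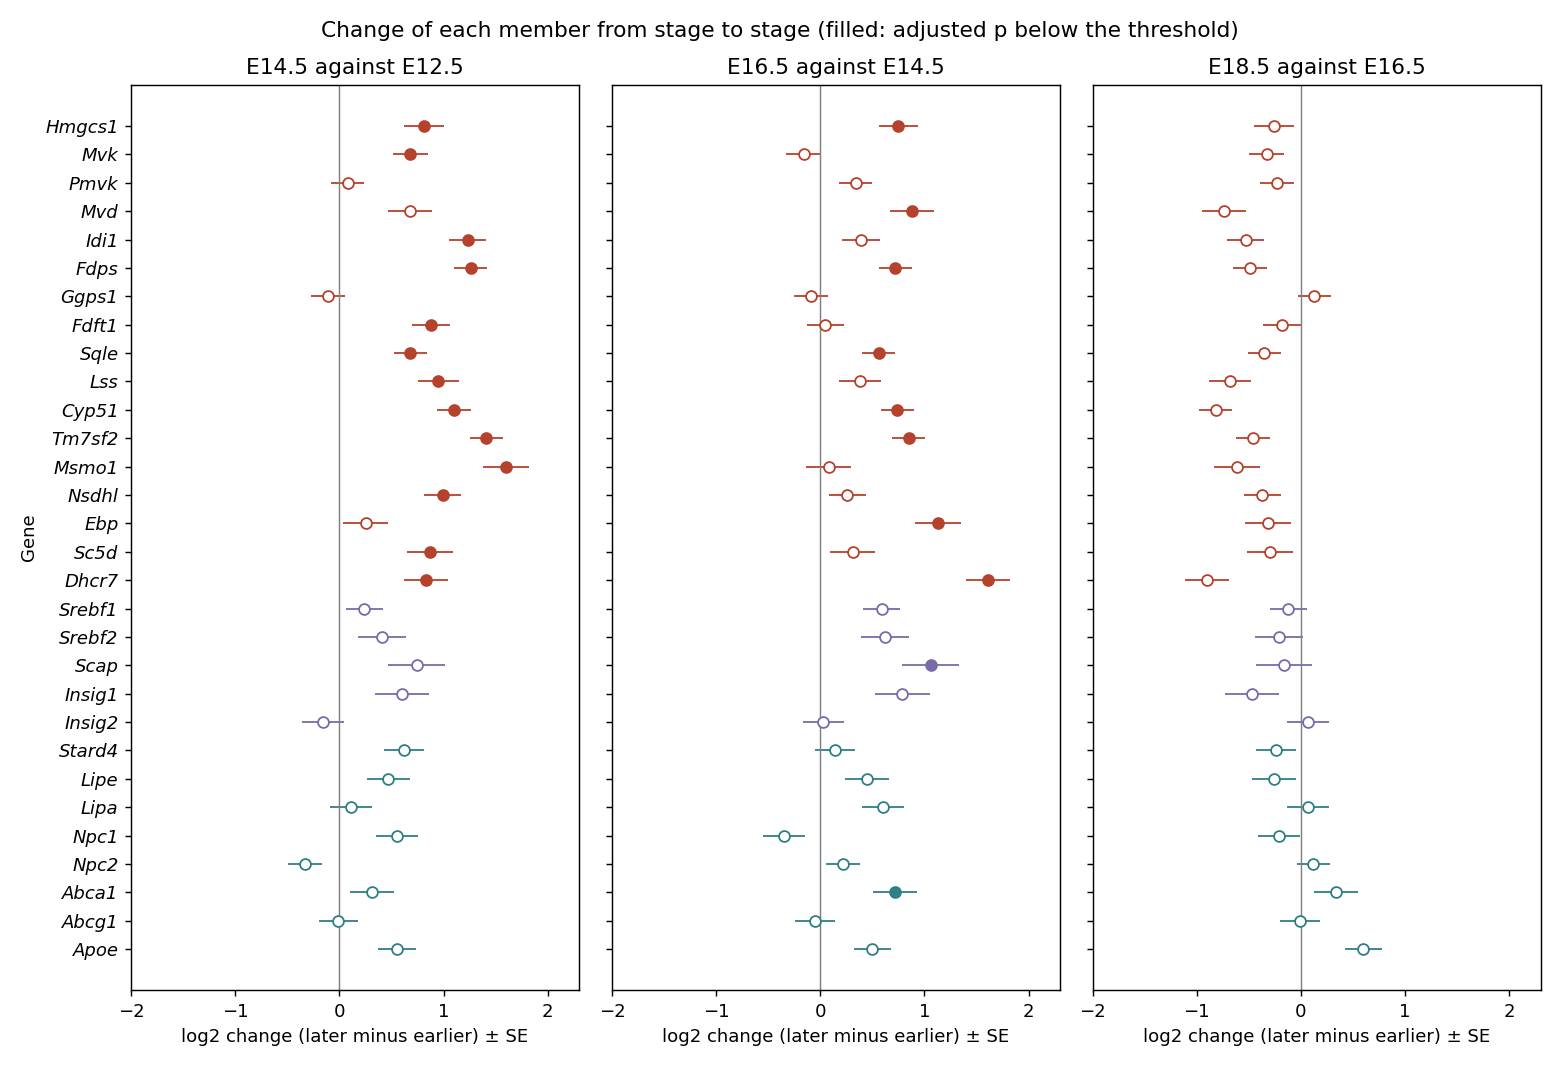
Log2 change of each gene, later minus earlier stage, with its standard error, in the 3 later steps between neighbouring stages, with filled points for an adjusted p below 0.05. The filled points of the left panel are all synthesis enzymes (red), and in the right panel no gene is filled although 16 of 17 synthesis enzymes lie left of 0.

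At the first and the last step 0 of the 30 genes passed limma's test after adjustment. With the fluidics module, which the E11.5 and E12.5 arrays share, as a block, 3 of the 30 passed at the first step and 0 at the last. The E11.5 and E12.5 arrays were scanned on different days, so stage and scan day cannot be told apart at the first step. Between E12.5 and E11.5 the background was 1.95% of tested genes higher and 1.32% lower, and 15 of 17 synthesis enzymes had a negative change, with a median of -0.29, against 51.1% of all tested genes and their median of -0.01. At an unadjusted p below 0.05, 6 of the 30 genes were lower, all of them enzymes, against 6.43% of all tested genes. Insig2 and Abca1 were higher at that p, near the 7.9% of all tested genes that were. Lss, the lanosterol synthase, had 116.1 and 90.0 at E12.5, against 222.3 and 158.7 at E11.5, a log2 change of -0.79 ± 0.20 (adjusted p = 0.0535). Hmgcs1 changed by -0.70 ± 0.19 (adjusted p = 0.0598) and Tm7sf2 by -0.58 ± 0.16 (adjusted p = 0.0653). These 3 were near the threshold, and without E11.5 replicate 2 the count of genes passing was 3.

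Between E18.5 and E16.5, 0.00916% of tested genes passed as higher and 0.00916% as lower, 1 gene each. Of the 30 genes, 9 were lower and 1, Apoe, was higher at an unadjusted p below 0.05, against 1.78% of all tested genes higher. Of the 17 synthesis enzymes, 16 had a negative change, with a median of -0.37 against -0.01 for all tested genes, of which 52.8% were negative. All 9 genes lower at an unadjusted p below 0.05 were enzymes, against 3.15% of tested genes. Dhcr7 changed by -0.90 ± 0.21 (adjusted p = 0.276) and Cyp51 by -0.82 ± 0.16 (adjusted p = 0.17). For both genes each E18.5 array lay below each E16.5 array. Mvd changed by -0.74, Lss by -0.68 and Msmo1 by -0.61, none past the test. This pair shares the E16.5 arrays with the comparisons above and spans 2 scan days, which cannot be told apart from stage.

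Over the whole period, E18.5 against E11.5, scanned on the same day, 14 of the 30 genes rose and 0 were lower. Among all tested genes 17.1% were higher and 11.0% lower. At an unadjusted p below 0.05, 0 of the 30 were lower, against 16.8% of all tested genes. The rise covered 11 synthesis enzymes, with a median of 0.59 over all 17. Dhcr7 averaged 448.5 ± 13.9 at E18.5 and 157.2 ± 13.0 at E11.5, a log2 change of 1.43 ± 0.21 (adjusted p = 0.000202). Tm7sf2 rose by 1.21 ± 0.16, Fdps by 1.20 ± 0.16 and Nsdhl, a sterol dehydrogenase, by 0.93 ± 0.18. Lss changed by -0.12 (adjusted p = 0.694) by its brightest probe set, which carries the suffix for probes shared by several transcripts, and by 1.11 by another (adjusted p = 0.000819 when such shared probe sets are left out). Without E18.5 replicate 1 the count was 9, and without E18.5 replicate 2 it was 8. Calls of Fdps, Tm7sf2, Nsdhl, Dhcr7, Scap, Abca1 and Apoe held with each array left out in turn. A fit to the 4 arrays of these stages alone called 11.

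Of the 5 regulators tested, 4 rose between E16.5 and E12.5, with a median of 1.03 over the 5. Scap, the sterol sensor and escort of SREBP, had signals of 270.6 and 194.8 on the E11.5 arrays, 148.6 and 248.0 on the E12.5 arrays, 343.9 and 320.8 on the E14.5 arrays, 638.8 and 785.4 on the E16.5 arrays, and 484.7 and 822.8 on the E18.5 arrays. Its arrays from E14.5 onward lay above all earlier ones, and the E18.5 arrays enclosed the E16.5 ones. It rose by 1.80 ± 0.27 between E16.5 and E12.5 (adjusted p = 0.000311) and by 1.40 ± 0.27 between E18.5 and E11.5 (adjusted p = 0.00146). Its second probe set, very dim with a mean signal of 15.8, changed by 0.86 and 1.56 in these comparisons and was highest at E18.5. Its rise of 1.06 between E16.5 and E14.5 (adjusted p = 0.0231) was lost without any 1 of the 4 arrays of those stages.

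Insig1, which retains Scap when sterol is plentiful and is itself a target of SREBP, had 335.5 and 587.8 on the E11.5 arrays, 290.9 and 377.7 on the E12.5 arrays, 394.8 and 657.7 on the E14.5 arrays, 897.7 and 891.9 on the E16.5 arrays, and 634.2 and 650.5 on the E18.5 arrays. The 2 arrays of a stage lay far apart up to E14.5 and close together after it. It rose by 1.39 ± 0.26 between E16.5 and E12.5 (adjusted p = 0.00173). Srebf2, the SREBP gene tied most closely to cholesterol synthesis, had 238.5 and 372.0 at E16.5, against 119.8 and 158.7 at E12.5, and rose by 1.03 ± 0.23 (adjusted p = 0.00482). Srebf1, tied more to fatty acid synthesis, had 365.3 and 346.1 at E16.5, against 166.6 and 223.7 at E12.5, and rose by 0.83 ± 0.18 (adjusted p = 0.00502). Calls of Srebf1 and Srebf2 were lost without E12.5 replicate 1, and that of Srebf2 also without E16.5 replicate 2. Insig2, a second retention protein, was highest at E12.5 by its brightest probe set and changed by -0.13 in this comparison (adjusted p = 0.656). Its other 2 probe sets were highest at E18.5 and E14.5 and changed by 0.24 and 0.09.

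Of the 8 transport and storage genes, 5 rose between E16.5 and E12.5, with a median of 0.74 over the 8. Abca1 and Apoe had their highest mean at E18.5. The E18.5 and E16.5 arrays of Lipa overlapped (a log2 difference of 0.07 ± 0.20, adjusted p = 1.0), and its other 2 probe sets were highest at E16.5 and E14.5. Abca1, which exports cholesterol to apolipoproteins at the cell surface, had 217.7 and 370.4 on the E11.5 arrays, 400.3 and 435.5 on the E12.5 arrays, 522.1 and 522.9 on the E14.5 arrays, 810.0 and 937.9 on the E16.5 arrays, and 1094.8 and 1114.1 on the E18.5 arrays. Every stage lay above the one before it. Between E18.5 and E11.5 it rose by 1.90 ± 0.21 (adjusted p = 1.38e-05). Its other 2 probe sets, with mean signals of 42.3 and 99.2, changed by 0.27 and 0.74 there. Between E16.5 and E12.5 they changed by -0.07 and 0.00, where the brightest changed by 1.03 ± 0.21 (adjusted p = 0.00277). Between E16.5 and E14.5 they changed by -0.56 and -0.39, where the brightest changed by 0.72 (adjusted p = 0.0428). The last of these calls was lost in 8 of 10 fits with an array left out, all except those without an E11.5 array.

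Apoe, the apolipoprotein that carries cholesterol between cells, had 161.8 and 195.8 on the E11.5 arrays, 149.7 and 190.9 on the E12.5 arrays, 227.3 and 285.1 on the E14.5 arrays, 361.7 and 372.3 on the E16.5 arrays, and 567.8 and 558.7 on the E18.5 arrays. Its E11.5 and E12.5 arrays overlapped, and each later stage lay above the one before. It averaged 563.2 ± 6.43 at E18.5 and 178.8 ± 24.0 at E11.5, a log2 change of 1.58 ± 0.18 (adjusted p = 1.88e-05), and it rose by 1.05 ± 0.18 between E16.5 and E12.5 (adjusted p = 0.000909). Between E18.5 and E16.5 it changed by 0.60 ± 0.18, which did not pass (adjusted p = 0.534).

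Of the storage and release enzymes, Lipe, a neutral lipase that also cleaves cholesteryl esters, had 90.0 and 115.4 at E16.5, against 40.6 and 53.0 at E12.5, and rose by 0.92 ± 0.21 (adjusted p = 0.00672). Its other probe set, with a mean signal of 17.2, changed by -0.04. Lipa, the lysosomal acid lipase, had 179.9 and 228.1 at E16.5, against 113.6 and 120.2 at E12.5, and rose by 0.72 ± 0.20 (adjusted p = 0.0165). Its other 2 probe sets, with mean signals of 55.6 and 66.0, changed by 1.02 and 0.25. Its call was lost when probe sets shared by several transcripts were left out. Stard4, a carrier of sterol between membranes, had other probe sets, with mean signals of 165.6 and 180.0, that changed by 0.21 and 0.56. By its brightest probe set it had 303.0 and 358.2 at E16.5, against 197.3 and 179.8 at E12.5, and rose by 0.76 ± 0.19 (adjusted p = 0.0112). All 3 genes lost this call without E16.5 replicate 2, Lipe and Lipa also without E12.5 replicate 1, and Stard4 and Lipa also without E12.5 replicate 2.

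The lysosomal exporters did not pass in any comparison. Npc1, the membrane protein of the pair, had 97.8 and 115.8 at E14.5, its highest stage, and from 59.3 to 81.8 on the other arrays. Npc2, its soluble partner, had 2079.6 and 1753.5 on the E11.5 arrays, 1824.3 and 1719.3 on the E12.5 arrays, 1356.2 and 1459.9 on the E14.5 arrays, 1691.9 and 1589.1 on the E16.5 arrays, and 1888.2 and 1681.4 on the E18.5 arrays. Its E14.5 arrays lay below all others. Abcg1, a second exporter of cholesterol, ranged from 118.0 to 186.7 and changed by -0.06 between E16.5 and E12.5 (adjusted p = 0.832).

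Set side by side, the enzymes and the transport and storage genes had unlike medians. Relative to the E11.5 means, the median log2 level of the synthesis enzymes was -0.32 and -0.39 on the E12.5 arrays, 0.49 and 0.56 on the E14.5 arrays, 1.06 and 0.94 on the E16.5 arrays, and 0.53 and 0.63 on the E18.5 arrays. That of the transport and storage genes was -0.24 and -0.05 on the E12.5 arrays, 0.27 and 0.43 on the E14.5 arrays, 0.28 and 0.55 on the E16.5 arrays, and 0.28 and 0.45 on the E18.5 arrays. The enzymes' median was the lower of the pair at E12.5 and the higher from E14.5 onward, with no overlap between arrays of a stage. All these levels share the 2 E11.5 arrays as reference, so an error in those arrays shifts each later one alike. The enzymes' median minus the other was 0.15 and -0.15 at E11.5, about the size of 0.21 and 0.13 at E14.5. The median of the regulators was 0.59 and 0.98 on the E16.5 arrays.

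The median change of synthesis enzymes minus that of transport and storage genes was -0.18 between E12.5 and E11.5, 0.47 between E14.5 and E12.5, 0.06 between E16.5 and E14.5, and -0.40 between E18.5 and E16.5. Over the pairs scanned together it was 0.63 between E16.5 and E12.5 and 0.21 between E18.5 and E11.5. No spread was worked out for these differences in median change. The level difference, the enzymes' median level minus the other on each array, is a separate measure. Its pooled SD between arrays of a stage was 0.18. By this measure the E16.5 arrays, with 0.78 and 0.39, lay above the E14.5 arrays, with 0.21 and 0.13. The E12.5 arrays had -0.08 and -0.34, which overlapped the E11.5 pair of 0.15 and -0.15. The E18.5 arrays, with 0.25 and 0.19, lay only just above that E11.5 pair. No test was made of these medians. Without E16.5 replicate 2 the difference in median change for E16.5 against E14.5 was 0.32. For E18.5 against E16.5 it was -0.19 without E16.5 replicate 1 and -0.61 without E16.5 replicate 2. For E18.5 against E11.5 it was 0.47 without E11.5 replicate 1, and the lowest with an array left out was 0.10. For E12.5 against E11.5 the range with an array left out was -0.34 to -0.08.

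**Figure D4:**
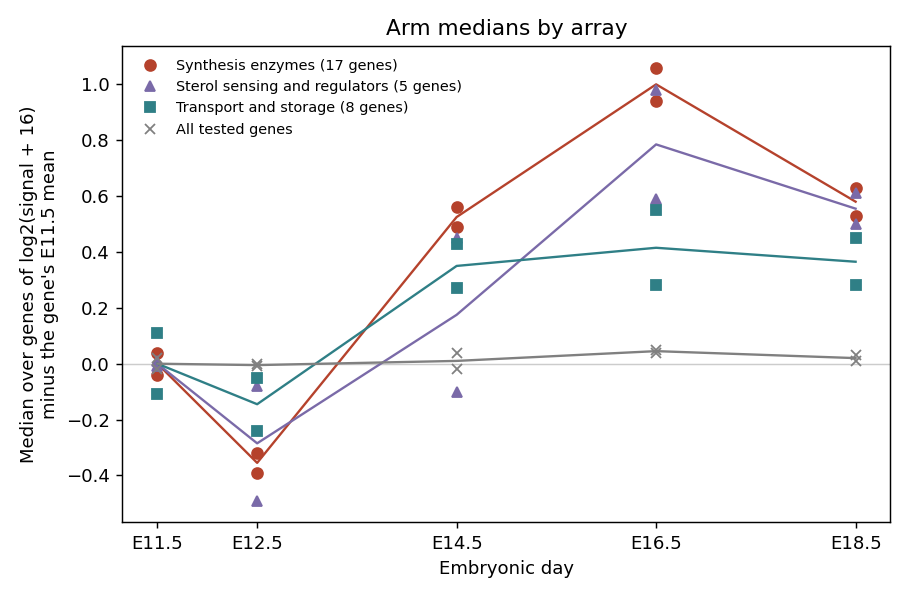
Median over genes of log2(signal + 16) minus each gene's E11.5 mean, with 1 point per array and lines joining stage means, by embryonic day. Synthesis enzymes (red circles) reach 1.06 and 0.94 at E16.5 and stand at 0.53 and 0.63 at E18.5, while transport and storage genes (teal squares) stay between 0.27 and 0.55 from E14.5 onward and all tested genes (grey crosses) stay near 0.

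Neighbouring parts of the pathway were read from lists of genes, against the same 16.8% of all tested genes higher and 10.2% lower between E16.5 and E12.5. Between E16.5 and E12.5, 5 of 7 tested genes of precursor supply and further sterol steps rose, with a median of 1.34. Hsd17b7, a sterol ketone reductase of cholesterol synthesis, had 413.8 and 360.3 at E16.5, against 100.1 and 75.7 at E12.5, and rose by 1.96 (adjusted p = 3.58e-06). Acly and Acss2, which supply acetyl-CoA, rose by 1.34 and 1.43. The list also held Fads2, a fatty acid desaturase and not an enzyme of sterol synthesis, which is counted among the 5 and rose by 2.20. Fatty acid targets of SREBP1 rose in 8 of 10 tested genes, with a median of 0.81, and none was lower by limma's test. Scd1, the stearoyl-CoA desaturase, had 313.4 and 337.5 at E16.5, against 32.9 and 46.6 at E12.5, a rise of 2.62 (adjusted p = 1.29e-06). Me1, a source of NADPH, rose by 2.24, Fads1 by 1.54 and Acaca, which makes malonyl-CoA, by 1.18.

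The isoprenoid branch away from cholesterol (prenyl transferases and the makers of ubiquinone and dolichol) had 9 tested genes. Of these, 0 passed limma's F test, against 34.7% of all tested genes. None passed in the 6 comparisons, in which up to 17.1% of all tested genes were higher and up to 11.0% lower. At an unadjusted p below 0.05, 0 passed the F test and at most 2 any comparison. These 2 were in E14.5 against E12.5, near the share of all tested genes, 12.9% higher and 10.4% lower. Rabggtb, a subunit of a Rab prenyl transferase, had the smallest F test p (adjusted p = 0.162). Of 9 genes of SREBP processing and enzyme degradation, 0 passed limma's F test, against that same 34.7%, and 2 at an unadjusted p below 0.05. In E18.5 against E11.5, 1 rose, Erlin1 (0.59, adjusted p = 0.0291), near the 17.1% of all tested genes that did. Of 7 lipid droplet and cholesteryl ester genes, 2 rose between E16.5 and E12.5, near the 16.8% of all tested genes that did, among them Abhd5, a lipase cofactor (0.64, adjusted p = 0.0384).

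For uptake, Scarb1, the receptor that takes cholesteryl ester from high-density lipoprotein, had 196.1 and 173.9 on the E11.5 arrays, 156.0 and 164.6 on the E12.5 arrays, 748.8 and 904.6 on the E14.5 arrays, 2354.9 and 2734.1 on the E16.5 arrays, and 1585.5 and 1362.7 on the E18.5 arrays. It rose by 3.86 between E16.5 and E12.5 (adjusted p = 6.18e-09), and 3 of 7 tested genes of its list rose, against 16.8% of all tested genes. The others were Lrp1 (1.55) and Cd36 (1.62), and Sorl1 changed by -0.17 (adjusted p = 0.54). Of 13 tested genes of intracellular sterol transport, 5 rose between E16.5 and E12.5, against that same share of 16.8%. They included Star, which brings cholesterol into mitochondria for steroid synthesis, with 1253.0 and 1109.5 at E16.5, against 103.7 and 103.1 at E12.5 (3.32, adjusted p = 5.75e-08), and Gramd1b, a carrier of plasma membrane cholesterol (2.70). Of the lipoprotein and efflux genes, 1 of 4 rose, near that share, the apolipoprotein Apoc1 (1.78, adjusted p = 0.000529), and 3 of 5 oxysterol and bile acid enzymes rose, Cyp27a1 (2.53), Cyp7b1 (1.09) and Cyp46a1 (0.95).

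Summed signals of cell type markers are given beside these results. Fetal Leydig cell markers (6 of 9 with a probe set, none at 0) summed to 1186.4 to 1329.2 on the E11.5 arrays, 944.7 to 1071.9 on the E12.5 arrays, 8473.3 to 10006.9 on the E14.5 arrays, 17293.9 to 18135.2 on the E16.5 arrays, and 12186.2 to 14335.0 on the E18.5 arrays. This sum was lowest at E12.5 and highest at E16.5, as were most synthesis enzymes, and it lay higher at E18.5 than at E14.5. The steroid synthesis enzymes (5 of 7 with a probe set, all 5 also in the list of fetal Leydig cell markers) summed to 16278.9 to 17533.3 at E16.5, against 599.8 to 737.5 at E12.5. Markers of macrophages, cells known to express Apoe and Abca1 (12 of 12 with a probe set, 7 tested, none at 0), summed to 1125.1 to 1128.9 on the E11.5 arrays, 695.6 to 738.6 on the E12.5 arrays, 956.0 to 1015.5 on the E14.5 arrays, 1133.1 to 1137.9 on the E16.5 arrays, and 1334.0 to 1497.7 on the E18.5 arrays. Of the 7 tested, 4 passed the F test, against 34.7% of all tested genes. Between E16.5 and E12.5, 3 of the 7 rose, against 16.8% of all tested genes. They were Lyz2 by 1.18, Mrc1 by 0.75 and Csf1r by 0.53, and the median of the 7 was 0.52. Between E18.5 and E11.5 only Lyz2 rose, near the 17.1% of all tested genes that did. The part of these cell types in the results was not tested.

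Markers of testis cells were present. The 8 Sertoli cell markers summed to 6011.0 to 9376.4 from E12.5 onward, against 2776.8 to 2946.2 at E11.5, with 4 higher and 1 lower of 8 between E16.5 and E12.5. Markers of other cells moved between E16.5 and E12.5 as well. Of all tested genes, 16.8% were higher and 10.2% lower in this comparison. The 6 peritubular and smooth muscle markers summed to 6083.9 to 6132.9 at E16.5, against 1531.4 to 2161.8 at E12.5, and 4 of 4 tested rose. The 7 germ cell markers with a probe set, of 8, summed to 4170.7 to 5122.7 at E16.5, against 2239.6 to 2884.2 at E12.5, with 4 higher and 2 lower. Erythroid markers (4 of 5 with a probe set) summed to 659.8 to 660.2 at E16.5, against 9492.7 to 9599.5 at E12.5, with 1 higher and 2 lower of 3 tested. The 7 endothelial markers summed to 912.2 to 1243.7 at E16.5, against 836.1 to 898.2 at E12.5, with Cdh5 higher and Emcn lower of 6 tested. Adrenal cortex markers (4 of 5 with a probe set) summed to 401.4 to 574.3 at E16.5, against 144.6 to 154.4 at E12.5, with 2 of 3 tested higher. Between E18.5 and E11.5 the peritubular sum was 6701.2 to 7119.3 at E18.5, against 830.4 to 842.3 at E11.5, the erythroid sum 205.0 to 280.6, against 11460.4 to 15737.2, and the adrenal sum 570.1 to 698.9, against 167.8 to 209.1. The endothelial sums overlapped there, with 840.7 to 1077.4 at E18.5, against 797.6 to 1266.9 at E11.5. Of 7 germ cell markers 5 rose and 2 fell there, against 17.1% of all tested genes higher and 11.0% lower. The part of these cell types in the results was not tested. No marker of these lists was at 0. In signs of RNA quality, the actin 3'/5' ratio was 2.61 and 2.60 at E16.5, against 1.93 and 2.03 at E12.5, and 1.57 to 2.62 on the other arrays, while the Gapdh ratio lay between 0.774 and 0.936. The E18.5 arrays had actin ratios of 1.87 and 2.62 and synthesis medians of 0.53 and 0.63. The part of RNA quality in the results was not tested.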

How the data were processed

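Affymetrix Mouse430_2 arrays (array type per the file headers) were made from Trizol-extracted RNA by a single-cycle biotin protocol, per the labels. The deposited table holds 1 linear intensity (signal) per probe set and array, 45101 probe sets on 10 arrays. No source used here gives the authors' software or scaling. The deposited intensities have a mean of 125.0 on every array once the extreme values are left out, and medians of 35.2 to 57.7. GEO's platform annotation named 34958 probe sets with 1 gene, 932 with several and 9211 with none, and symbols were updated through Entrez IDs for 34754.

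From these values, log2(signal + 16) was taken, the brightest probe set kept per gene (18193 genes) and genes under the 40th percentile of mean expression (signal 49.1) left out. For the 10916 genes left, limma 3.58.1 in R 4.3.3 fitted stage over all 10 arrays (eBayes with trend, 5 residual and 8.59 prior degrees of freedom), with an F test, 6 two-sided contrasts and Benjamini-Hochberg adjustment over all tested genes at 0.05. The number of arrays limits the precision; each preparation is 1 replicate. The fitting was tested on simulated data.

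The 34 genes and all lists and tests were chosen with earlier results of these data known. All 34 genes may be named, and up to 4 genes of smallest F test p in each other list, with all fetal Leydig cell and macrophage markers. Alternatives changed the pseudocount, filter, scaling, probe set rule, variance trend, replicate or fluidics module block, arrays in the fit and, in turn, each array left out. The arrays were scanned on 3 days: E14.5 on 1, E12.5 with E16.5 on another, and E11.5 with E18.5 on the third. Fluidics modules 1 and 2 held the E11.5, E12.5 and E14.5 arrays and modules 3 and 4 the E16.5 and E18.5 arrays, so module and stage cannot be told apart in E16.5 against E14.5, E16.5 against E12.5 and E18.5 against E11.5.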

Additional observations from a re-analysis of the deposited data

How the results depend on the processing

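Of the 61 calls of single genes in the 6 comparisons, 29 held in every fit, 30 were lost with at least 1 array left out and 21 in at least 1 of 11 other settings, while 21 other calls appeared in some setting. With the mean of all probe sets, the change of Abca1 between E16.5 and E14.5 was -0.08 (adjusted p = 0.887), in place of 0.72. Without probe sets of suffix _x_at and _s_at, the change of Lss between E18.5 and E11.5 was 1.11, in place of -0.12. The direction of these changes depended on which probe set stood for the gene.

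The number of these genes called between E12.5 and E11.5, 0 as reported, was 1 with a pseudocount of 1, with the stricter filter at the 60th percentile, with quantile normalization and with the mean of probe sets, and 3 with the module block. Synthesis minus transport and storage for E16.5 against E14.5 (0.06 as reported) was 0.49 with the mean of probe sets and 0.30 without _x_at and _s_at probe sets. For E16.5 against E12.5 (0.63) it was 0.87 in both of these settings, and for E18.5 against E11.5 (0.21) it was 0.41 in the second. Over all tested genes, calls between E12.5 and E11.5 (357) were 566 with the module block and 158 in a fit to 4 arrays, and those between E14.5 and E12.5 (574) were 365 with the stricter filter and 1003 with the module block. Calls between E18.5 and E16.5 (2) were 13 with a pseudocount of 64, 0 without a filter or without the variance trend, 5 with the stricter filter and with 4 arrays, 4 with the mean of probe sets and 16 with the module block.

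With each array left out in turn, all calls ranged from 148 to 368 for E12.5 against E11.5, 183 to 838 for E14.5 against E12.5, 168 to 1436 for E16.5 against E14.5, 0 to 4 for E18.5 against E16.5, 1204 to 3299 for E16.5 against E12.5 and 1943 to 3291 for E18.5 against E11.5. Calls among the 30 genes ranged from 0 to 3, 7 to 14, 1 to 12, 0 to 0, 19 to 24 and 8 to 14 in that order, and from 20 to 24 in the F test. The difference between the groups of genes ranged from -0.06 to 0.32 for E16.5 against E14.5, -0.61 to -0.19 for E18.5 against E16.5, 0.49 to 0.84 for E16.5 against E12.5 and 0.10 to 0.47 for E18.5 against E11.5. A stage left with 1 array was assumed to vary like the others.

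Same-numbered arrays deviated together with correlations of 0 to 0.37 over 10 pairs of stages, so the numbers were not taken as pairs. With the replicate block, all calls were 898 between E14.5 and E12.5, 1783 between E16.5 and E14.5 (1181 as reported) and 4 between E18.5 and E16.5, the 30 genes had 3 calls between E12.5 and E11.5, and the block lost 0 and added 13 calls of single genes. A block for scan day adds nothing that stage does not hold and was not run, and the module block could be fitted for 3 comparisons only. Quantile normalization moved the median of all genes by under 0.1.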
